A study of Mus musculus with 12 samples.

Results

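The variable (V) gene segments of the immunoglobulin loci were examined in RNA-seq of the mouse duodenum. The members were the genes whose symbol starts with Ighv, Igkv or Iglv, that both deposited count tables list, and whose raw counts sum to at least 60 over the 6 libraries of each table. This gave 82 of the 26121 genes that both tables list: 46 heavy chain segments (Ighv), 34 kappa segments (Igkv) and 2 lambda segments (Iglv). Another 82 V segments of both tables lay below the minimum, and 46 and 27 were listed in the first or the second table only, of which 15 and 12 reached 60 counts. The members nearest to the limit were Ighv1-12 with 73 and 94 counts in the 2 tables, Ighv2-9-1 with 74 and 177, and Ighv2-5 with 75 and 200. Just outside it lay Ighv1-77 with 57 and 104, Igkv3-10 with 232 and 52, and Igkv12-98 with 94 and 48. The members held 79.0% of all V segment counts in the table of Chow and HFD and 88.6% in that of HFD PCN and its vehicle. The members were thus selected on their summed counts, and their total level is given below as a description with no test. A member could meet the minimum through a single group of a table, the one where it was high.

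All mice were of the C57BL/6N strain and entered the study at 6 weeks of age. They were fed regular chow (group Chow) or a high-fat diet for 18 weeks. The high-fat groups had no injection (HFD), vehicle of 30% DMSO in corn oil (HFD Vehicle) or 50 mg/kg pregnenolone 16α-carbonitrile (HFD PCN), an agonist of the mouse pregnane X receptor, both given into the peritoneum daily for 4 days. Each group had 3 libraries, called here by group and the number in the label. No label states that the numbers stand for separate mice, so p-values measure the spread between these libraries.

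A complete V gene is assembled in each developing B cell when 1 heavy chain V segment is joined to D and J segments, and 1 kappa or lambda V segment to a J segment. All descendants of that cell carry the same joined pair, so V transcripts report on both how many antibody-secreting cells are present and which clones they belong to. Plasma cells of the small bowel lamina propria mostly make IgA, whose heavy chain constant region is encoded by Igha. The joining chain, encoded by Jchain, links IgA into polymers that the epithelium carries into the gut lumen. Igha and Jchain therefore serve here as a reference for plasma cell content.

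The V segments are near copies of one another, which bears on how exactly a read can be given to its segment. The coding part of each member's V exon was read from GENCODE M21 (GRCm38), where all 82 had the same coordinates as in the count tables and were annotated as immunoglobulin V genes. It was 298 to 351 bases long. Its best match among the other annotated V segments had a median identity of 95.7% (57.3% for Iglv3 to 99.02% for Ighv1-72), and 48 members had a match of at least 95%. Counts of single segments are therefore uncertain to the degree that such reads were left out or given to another segment. How the counting treated them is not given in the sources used here. Somatic mutation of plasma cell transcripts adds to this to an extent that was not tested. The results below turn on Ighv6-3 and Ighv6-6, the only Ighv6 members, shown from the start of the coding V exon with the 21 positions of these 300 bases where they differ in capitals. The stretches lie on the minus strand at chr12:114391722-114392021 and chr12:114434799-114435098.
Ighv6-3: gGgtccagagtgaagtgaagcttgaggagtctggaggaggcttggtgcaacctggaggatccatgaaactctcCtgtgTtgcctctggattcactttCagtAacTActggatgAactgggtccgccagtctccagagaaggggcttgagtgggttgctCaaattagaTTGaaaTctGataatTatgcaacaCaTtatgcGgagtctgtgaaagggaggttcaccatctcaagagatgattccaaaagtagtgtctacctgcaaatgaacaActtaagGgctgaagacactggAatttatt
Ighv6-6: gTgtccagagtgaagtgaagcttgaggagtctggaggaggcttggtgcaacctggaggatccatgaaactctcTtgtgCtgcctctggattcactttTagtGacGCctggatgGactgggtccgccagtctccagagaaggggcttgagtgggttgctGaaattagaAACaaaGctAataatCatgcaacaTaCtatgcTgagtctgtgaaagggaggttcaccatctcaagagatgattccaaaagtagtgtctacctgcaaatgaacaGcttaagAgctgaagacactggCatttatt
Over the whole exon the pair had 92.6% identity, and neither had another V segment at 95% or more.

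The end of the V exon is where joining takes place: the last codon for cysteine (capitals) opens the last of the antigen-binding loops, and the bases after it are joined to D or J. The last 90 bases are shown for the 3 segments that passed the edgeR test of a group difference (Ighv3-6, Igkv4-55, Igkv8-21), for Igkv1-110 and Igkv8-30, which led the kappa usage of several libraries, and for both lambda members.
Ighv3-6: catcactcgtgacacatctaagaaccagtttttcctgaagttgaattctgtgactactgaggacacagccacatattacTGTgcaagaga
Igkv4-55: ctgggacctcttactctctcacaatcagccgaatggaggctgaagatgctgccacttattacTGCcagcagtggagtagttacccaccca
Igkv8-21: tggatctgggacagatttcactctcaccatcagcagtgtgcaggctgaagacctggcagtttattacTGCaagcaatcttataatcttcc
Igkv8-30: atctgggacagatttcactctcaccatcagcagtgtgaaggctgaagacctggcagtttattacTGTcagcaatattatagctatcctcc
Igkv1-110: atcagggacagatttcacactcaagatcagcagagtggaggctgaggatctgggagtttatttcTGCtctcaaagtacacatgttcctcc
Iglv1: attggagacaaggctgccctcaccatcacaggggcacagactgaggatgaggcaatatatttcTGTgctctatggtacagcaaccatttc
Iglv3: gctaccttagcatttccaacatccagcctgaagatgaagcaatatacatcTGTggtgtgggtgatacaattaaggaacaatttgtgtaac
The stretches lie at chr12:114288152-114288241, chr6:69607275-69607364, chr6:70314895-70314984, chr6:70117061-70117150, chr6:68271178-68271267, chr16:19085017-19085106 and chr16:19241207-19241296, all on the minus strand except that of Igkv1-110. Igkv8-21 and Igkv8-30 belong to the same family and had 92.3% identity over the V exon, close to the 92.7% of Igkv8-21 with its nearest segment, Igkv8-19. Ighv3-6 was closest to Ighv3-1 (93.5%), Igkv4-55 to Igkv4-68 (95.7%), Igkv1-110 to Igkv1-117 (96.8%) and Iglv1 to Iglv2 (97.1%).

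Library totals ran from 4676718 (HFD Vehicle 55) to 20684369 counts (HFD PCN 5). The members took up 2013 (HFD Vehicle 23) to 16863 (HFD PCN 5) of them. 2 libraries of 1 group stood apart: HFD Vehicle 23 and 50 had 1427 and 1453 CPM (counts scaled to a library total of 1000000) of Hsp90aa1, a heat shock chaperone, against 60.6 to 465 in the other 10 libraries, and mitochondrial rRNA held 33.6% of the counts of HFD Vehicle 23 against 8.69% to 19.2% elsewhere. In HFD 4, 30 and 38, genes annotated as rRNA held 13.001%, 1.03% and 2.72% of the counts, against 0.0133% to 0.0253% in the Chow libraries. In the HFD Vehicle and HFD PCN libraries they held 0.000589% to 0.000842%. The totals used for CPM include these counts. The member share of HFD 4 was 0.0580% with them and 0.0667% without them. In HFD 30 and 38 it was 0.0387% and 0.0615% with them and 0.0391% and 0.0632% without them. The tissue label is duodenum although the extraction text names liver, and the 7 enterocyte markers (Vil1, Fabp1, Fabp2, Apoa1, Apoa4, Alpi, Sis) summed to 6784 CPM in HFD Vehicle 23 and to 13154 to 31102 CPM in the other libraries.

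The summed level of the V segments overlapped between all 4 groups, and the HFD Vehicle libraries held both its lowest and its highest values. The members summed to 620, 982 and 513 CPM in Chow 8, 17 and 19. They summed to 580, 387 and 615 CPM in HFD 4, 30 and 38. In HFD Vehicle 23, 50 and 55 the sum was 112, 147 and 1154 CPM. It was 815, 592 and 1003 CPM in HFD PCN 5, 11 and 27. HFD Vehicle 23 and 50 thus lay below the other 10 libraries, and HFD Vehicle 55 above them. As a share of all counts the means were 0.0705% ± 0.0246 (SD, n = 3) in Chow, 0.0528% ± 0.0123 in HFD, 0.0471% ± 0.0592 in HFD Vehicle and 0.0804% ± 0.0205 in HFD PCN. Without HFD Vehicle 23 and 50, the group with vehicle was left with the single value of 0.115%. With mitochondrial rRNA taken out of the total, HFD Vehicle 23 and 50 still stood lowest, at 0.0169% and 0.0177% against 0.0452% to 0.132%. In bulk tissue, fewer plasma cells and less immunoglobulin RNA per cell cannot be told apart.

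**Figure D1:**
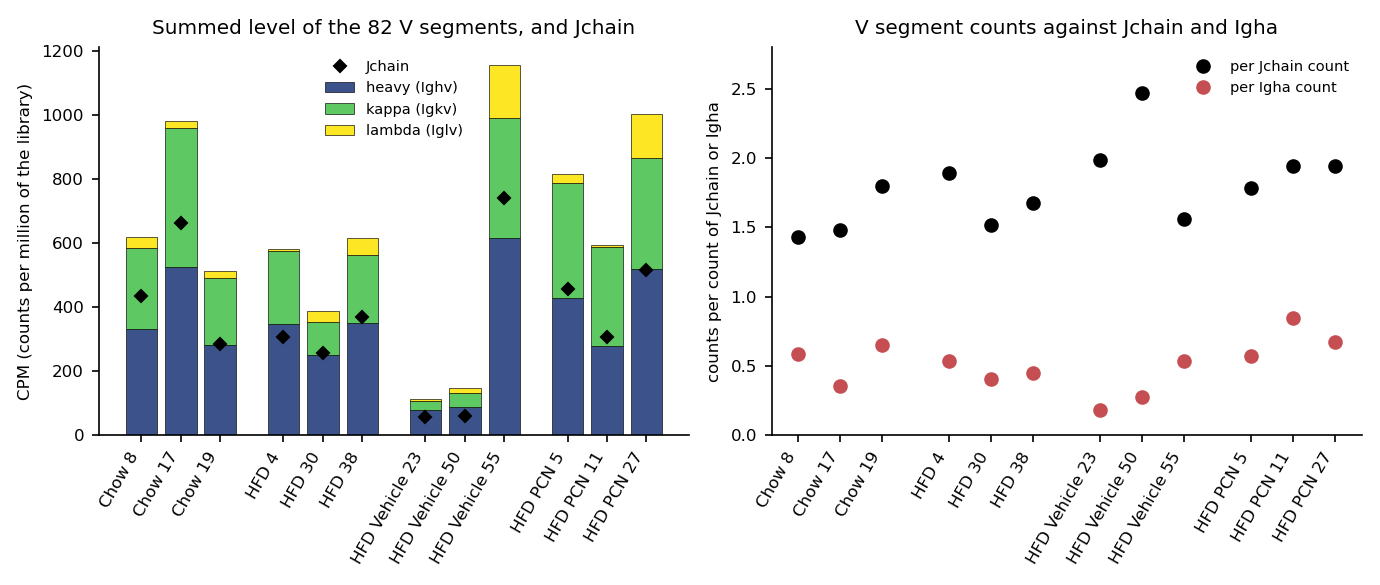
Left, summed CPM of the 82 V segments in each library, stacked by locus (heavy, kappa, lambda), with Jchain CPM as diamonds. Right, V segment counts per count of Jchain (black) and of Igha (red). HFD Vehicle 23 and 50 have the shortest bars (112 and 147 CPM), while their counts per Jchain count (1.98 and 2.47) are the highest.

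Jchain followed the V segments closely. It stood at 434, 664 and 286 CPM in the Chow libraries, 307, 255 and 367 CPM in HFD, 56.4, 59.8 and 741 CPM in HFD Vehicle and 457, 305 and 516 CPM in HFD PCN, in the order of the library numbers. The members had 1.43 to 2.47 counts for each Jchain count in all 12 libraries, a span of 1.73-fold where their summed level spanned 10.3-fold. Igha followed them less closely: HFD Vehicle 23 and 50 had 623 and 542 CPM, and the others 704 to 2771 CPM. The members accordingly had 0.179 and 0.272 counts per Igha count in these 2 libraries and 0.354 to 0.842 in the other 10. Neither Igha nor Jchain passed the edgeR test in any comparison with all libraries. The log2 fold change of Igha was -0.27 (SE 0.42) for HFD against Chow and 0.10 (SE 0.47) for HFD PCN against HFD Vehicle. That of Jchain was -0.42 (SE 0.28) and 0.64 (SE 0.92). For the kappa constant segment Igkc it was -1.06 (SE 0.39) and 0.89 (SE 0.67), with edgeR adjusted p-values of 0.425 and 0.468. Without HFD Vehicle 55, Jchain and Igkc were called higher in HFD PCN than in HFD Vehicle (2.69 and 2.19, edgeR adjusted p = 0.000207 and 0.00513). That fit called 22% of all genes. Jchain was also called lower in HFD Vehicle than in HFD without HFD Vehicle 55 (-2.30, edgeR adjusted p = 0.00986), where 1.54% of all genes were called. Without a count filter, Igkc was called lower in HFD than in Chow (edgeR adjusted p = 0.00222), where 1.25% of all genes were called in either direction.

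The ratio of Igkc to Igha and the lambda share of the light chain differed between libraries. Igkc gave 0.847, 0.632 and 0.726 counts per Igha count in the Chow libraries and 0.374, 0.355 and 0.478 in HFD, so that the untreated groups did not overlap. In HFD Vehicle the ratios were 0.327, 0.288 and 0.558, and in HFD PCN 0.958, 1.01 and 0.485. This ratio sets kappa against the heavy chain and not against lambda, and a difference in it was not tested. The lambda share of the light chain member counts overlapped between the untreated groups, at 4.79% to 12.7% in Chow and 2.87% to 24.0% in HFD. Lambda segments made up 1.78% (HFD PCN 11) to 30.5% (HFD Vehicle 55) of the light chain member counts, and 28.5% in HFD PCN 27. The lambda level of those latter libraries came from both members in HFD Vehicle 55 (Iglv1 99.2 CPM, Iglv3 64.8 CPM) but mostly from Iglv3 in HFD PCN 27 (24.4 and 113 CPM). Iglv3 was below 10 CPM in all other libraries, and Iglv1 ranged there from 3.44 to 50.0 CPM.

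Many single segments were high in few libraries. The library in which a member was highest held a median of 28.2% of its summed CPM, where an even spread would give 8.33%. The lowest such share was 13.97% (Ighv1-22). The summed level was itself uneven over the libraries, so a member that followed the sum would also lie above 8.33%. Chow 17 was the highest library of 26 members, HFD Vehicle 55 of 15, HFD PCN 27 of 11 and HFD PCN 5 of 9, and HFD Vehicle 23 and 50 of none. For 5 members a single library held more of the CPM than the other 11 together: Ighv3-8 (Chow 17, 56.5%), Iglv3 (HFD PCN 27, 55.9%), Igkv13-85 (HFD PCN 5, 54.4%), Ighv1-78 (HFD PCN 27, 54.1%) and Igkv6-17 (Chow 17, 50.6%). In Ighv3-8, for example, Chow 17 had 28.7 CPM while Chow 8 and 19 had 0.121 and 3.04 CPM.

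**Figure D2:**
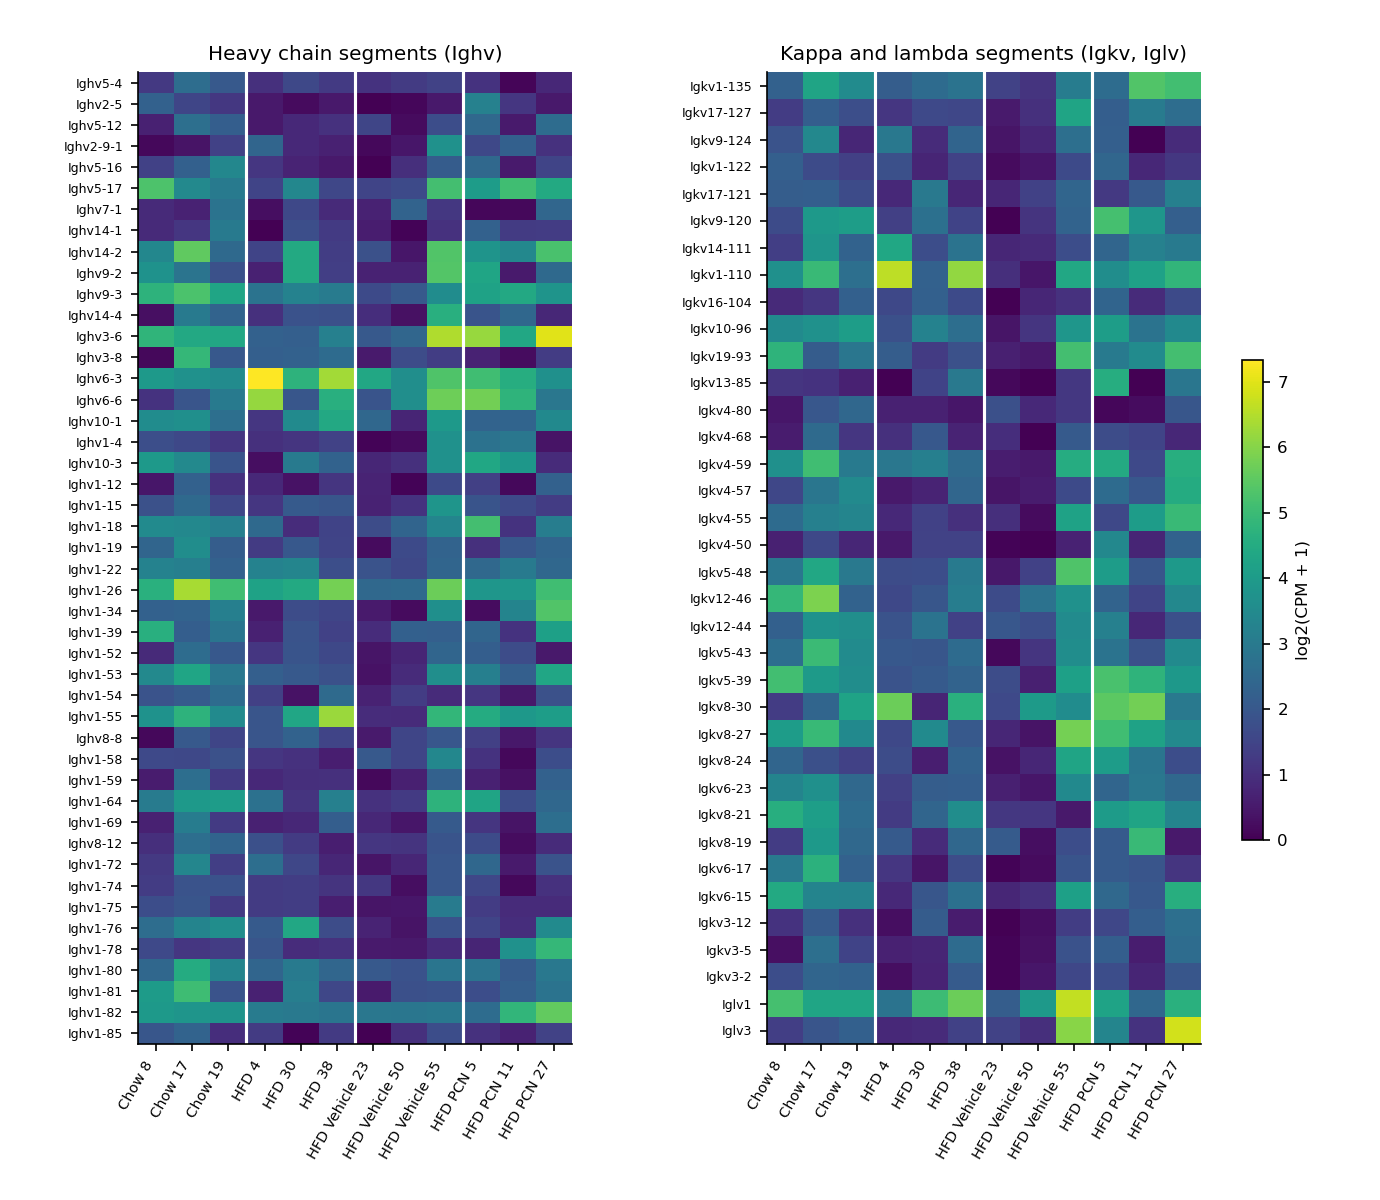
Level of every member as log2(CPM + 1) in the 12 libraries, with heavy chain segments on the left and light chain segments on the right, each in the order of coordinates, and white lines between the groups. Ighv6-3 and Igkv1-110 are brightest in HFD 4 and HFD 38, and Iglv3 in HFD Vehicle 55 and HFD PCN 27, and not in all libraries of those groups.

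High-fat diet against chow was compared first. Most V segments had lower values after high-fat feeding, 2 of them passed the test, and the Ighv6 segments stood on the other side. Of the 79 members tested, 61 had a negative and 18 a positive log2 fold change, with a median of -0.98 against 0.0046 for all 15278 genes tested. The edgeR quasi-likelihood test with Benjamini-Hochberg adjustment over all genes called 10 genes at 0.05, or 0.0655% of those tested (1 higher, 0.00655%, and 9 lower, 0.0589%), and 2 of the 10 were members, both lower in HFD. DESeq2 called 11 members where it called 0.833% of all genes, edgeR without a count filter 19 where it called 1.25%, and the fit that used all 12 libraries 0 where it called 0.0119%. Without adjustment, 22 members were lower and 1 higher at 0.05, where 4.59% and 5.75% of all genes were. With the scaling of the fit, every HFD library was below every Chow library in 17 members, and above in 1. The shares of all genes whose groups did not overlap in these directions were 8.16% and 8.14%. The medians were -0.94 for the heavy chain segments and -1.03 for the kappa segments. Without Chow 17, the median of the members was -0.48.

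Ighv3-6 (ENSMUSG00000076672), a heavy chain segment at chr12:114288152-114288582, was the leading member in several libraries of other groups. It had 26.9, 20.4 and 20.04 CPM in the Chow libraries and 3.86, 3.62 and 8.19 CPM in the HFD libraries. The groups did not overlap, and it fell by 1.95 on the log2 scale (SE 0.288, edgeR adjusted p = 0.0481). Igkv4-55 (ENSMUSG00000096833), a kappa segment at chr6:69607275-69607828, had 4.96, 8.10 and 9.17 CPM in Chow and 0.812, 1.67 and 1.02 CPM in HFD. It fell by 2.42 (SE 0.355, edgeR adjusted p = 0.0481), and again no HFD library reached a Chow library. The raw counts of Igkv4-55 were 41, 52 and 136 in Chow and 4, 31 and 17 in HFD. Its HFD counts alone lay below the minimum for members, so it met that minimum in this table through Chow, where it was high. Both calls sat close to the threshold: each was lost when Chow 8, Chow 17, Chow 19, HFD 4 or HFD 30 was left out, and when all 12 libraries were fitted together. Over its 11 alternatives the adjusted p of Ighv3-6 ran from 9.77e-12 to 0.742, and that of Igkv4-55 from 2.43e-08 to 0.737.

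Further members had groups that did not overlap but did not pass the edgeR test, and their values are given as a description. DESeq2 and edgeR without a count filter called 2 of those named here, Igkv5-39 and Ighv5-16, and edgeR also called Igkv5-39 without Chow 19. Igkv5-39 had 33.3, 14.95 and 11.1 CPM in Chow against 2.64, 3.19 and 4.00 CPM in HFD (-2.44 on the log2 scale, SE 0.442, with an edgeR adjusted p of 0.156). Igkv6-17 had 6.78, 25.2 and 3.85 CPM against 1.22, 0.324 and 2.27 CPM (-3.07). Ighv5-16 had 1.70, 3.74 and 9.58 CPM against 1.22, 0.648 and 0.418 CPM (-2.78). The Chow libraries themselves differed by 3.01-fold, 6.56-fold and 5.65-fold in these 3 segments. The raw HFD counts were 6, 6 and 38 for Igkv6-17 and 6, 12 and 7 for Ighv5-16. For both, the HFD counts alone lay below the minimum for members, which was met in this table through Chow. Ighv1-39, at -2.50, owed its Chow mean to Chow 8, which had 23.7 CPM against 3.58 and 6.21 CPM in Chow 17 and 19.

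Ighv6-3 (ENSMUSG00000076677, chr12:114391712-114392169) was the only member with every HFD library above every Chow library. It had 14.4, 11.99 and 10.5 CPM in Chow and 160, 25.8 and 78.7 CPM in HFD 4, 30 and 38. Its log2 fold change of 3.03 (SE 0.771) had an edgeR adjusted p of 0.363, and DESeq2 gave 0.0112, the lowest of the 11 alternatives, which reached 0.991. Ighv6-6 (chr12:114434788-114435244) had 1.09, 2.803 and 7.08 CPM in Chow and 71.5, 2.92 and 23.9 CPM in HFD, and was thus high in the same libraries, HFD 4 and 38, while HFD 30 stood within the Chow range. Its fold change was 3.23 (SE 1.41, edgeR adjusted p = 0.507). Igkv1-110, which had 96.0, 3.84 and 69.7 CPM in HFD 4, 30 and 38, and Igkv8-30, which had 51.0, 0.702 and 24.3 CPM, showed the same pattern among the kappa segments. HFD 30 was lower than all Chow libraries in both, at 5.46 to 30.4 and 1.45 to 18.1 CPM.

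**Figure D3:**
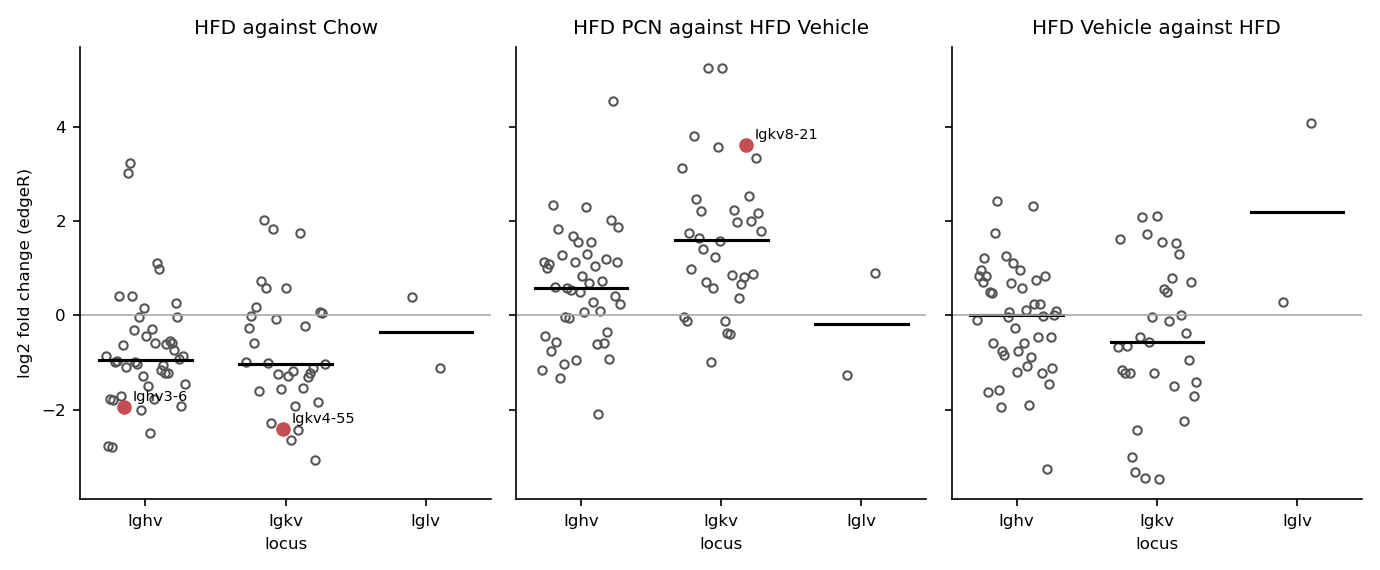
Log2 fold change (edgeR) of each tested member by locus in the 3 comparisons. Circles are members, black bars the median of a locus, and filled red circles the members that passed the test: Ighv3-6 and Igkv4-55, lower in HFD than in Chow, and Igkv8-21, higher in HFD PCN than in HFD Vehicle.

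PCN was compared with its vehicle on the high-fat diet. More V segments had higher than lower values after PCN, 1 kappa segment passed the test, and the direction of the others depended on which vehicle libraries were used. Of 80 members tested, 59 had a positive and 21 a negative log2 fold change, with a median of 0.89 against -0.012 for all 16110 genes tested. The edgeR test called 10 genes, or 0.0621% (8 higher, 0.0497%, and 2 lower, 0.0124%), among them 1 member, which was higher. DESeq2 called 7 members and 1.93% of all genes, edgeR without a count filter 4 and 2.93%, and the fit that used all 12 libraries 0 and 0.202%. Without adjustment 13 members were higher and 1 lower, where 6.46% and 11.5% of all genes were. With the scaling of the fit, the PCN libraries all lay above vehicle in 8 of 80 members and all below in 1. The shares of all genes were 9.84% and 9.48%, so the 8 were near the share of all genes. The 1 below, Ighv5-4, overlapped in CPM, with 1.11195 in HFD PCN 5 and 1.11116 in HFD Vehicle 23. The medians were 0.59 for heavy chain and 1.61 for kappa segments. Without HFD Vehicle 23 and 50, a choice made after seeing the data that leaves 1 vehicle library assumed to vary like the PCN libraries, the median over the members was -0.44, 30 of 82 were positive, and no member was among the 2 genes called (0.0122%). Without HFD Vehicle 55 instead, the median was 2.63 and 25 members were called, all higher, along with 22% of all genes (3697). The chaperone level of HFD Vehicle 23 and 50 moved with these values and its part in them was not tested.

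Igkv8-21 (ENSMUSG00000076586, chr6:70314895-70315472) was the called member. It had 1.28, 1.25 and 0.428 CPM in HFD Vehicle 23, 50 and 55 and 15.4, 18.6 and 8.96 CPM in HFD PCN 5, 11 and 27. In CPM it was low in all 3 vehicle libraries, HFD Vehicle 55 included, and it rose by 3.61 on the log2 scale (SE 0.475, edgeR adjusted p = 0.0432). Its raw counts were 23, 24 and 2 with vehicle and 319, 298 and 84 with PCN. Its vehicle counts alone lay below the minimum for members, so it met that minimum in this table through PCN. As a share of the kappa member counts it was 4.48%, 2.91% and 0.114% in HFD Vehicle 23, 50 and 55. In HFD PCN 5, 11 and 27 this share was 4.28%, 6.06% and 2.59%, so HFD Vehicle 23 and 50 lay within the PCN range. Relative to the other kappa members, only HFD Vehicle 55 was low, and its share rests on 2 of 1751 kappa member counts. Its level after PCN lay in the range of Chow (23.0, 16.4 and 5.06 CPM), and HFD without injection had 1.42, 4.21 and 11.0 CPM. Its fold change was between 3.33 and 5.19 over 12 alternatives, while its adjusted p ran from 9.50e-12 to 0.715. The call was lost without HFD Vehicle 23 or 50, without both of them, without HFD PCN 5 or 11, and when all 12 libraries were fitted together.

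3 other kappa segments had the largest differences among members whose groups did not overlap, and 0 of the 3 passed the edgeR test. DESeq2 called Igkv4-57 and Igkv3-12, as did edgeR without HFD Vehicle 55, with the lowest adjusted p-values over 12 alternatives being 0.000247 (DESeq2) for Igkv4-57 and 0.00264 (edgeR without HFD Vehicle 55) for Igkv3-12, and the highest 0.997. With vehicle, Igkv4-50 had 0.0556, 0 and 0.641 CPM, and with PCN 9.67, 0.688 and 3.95 CPM. Igkv4-57 had 0.333, 0.469 and 2.14 CPM in the vehicle libraries against 4.93, 2.94 and 21.6 CPM in the PCN libraries. For Igkv3-12 the values were 0, 0.209 and 1.497 against 1.93, 3.57 and 5.44 CPM. The raw vehicle counts were 1, 0 and 3 for Igkv4-50, 6, 9 and 10 for Igkv4-57, and 0, 4 and 7 for Igkv3-12. For each segment the vehicle counts alone lay below the minimum for members, which was met in this table through PCN. In each of the 3, HFD Vehicle 55 was the highest of the vehicle libraries and came near to the lowest PCN library, and the edgeR adjusted p was 0.231. Igkv14-111 likewise had 0.722, 0.834 and 2.35 CPM against 4.21, 8.26 and 7.04 CPM (log2 fold change 2.48, edgeR adjusted p = 0.200), and it was called by DESeq2, by edgeR without a count filter and by edgeR without HFD Vehicle 55. Ighv3-6, lower in HFD than in Chow, had 72.1, 19.96 and 126 CPM after PCN and 3.17, 4.33 and 87.5 CPM after vehicle, so the groups overlapped (log2 fold change 1.28, SE 1.29). Igkv4-55 had 1.98, 15.6 and 30.2 CPM after PCN against 1.0, 0.156 and 17.7 CPM after vehicle. Both thus followed the split of the vehicle libraries.

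**Figure D4:**
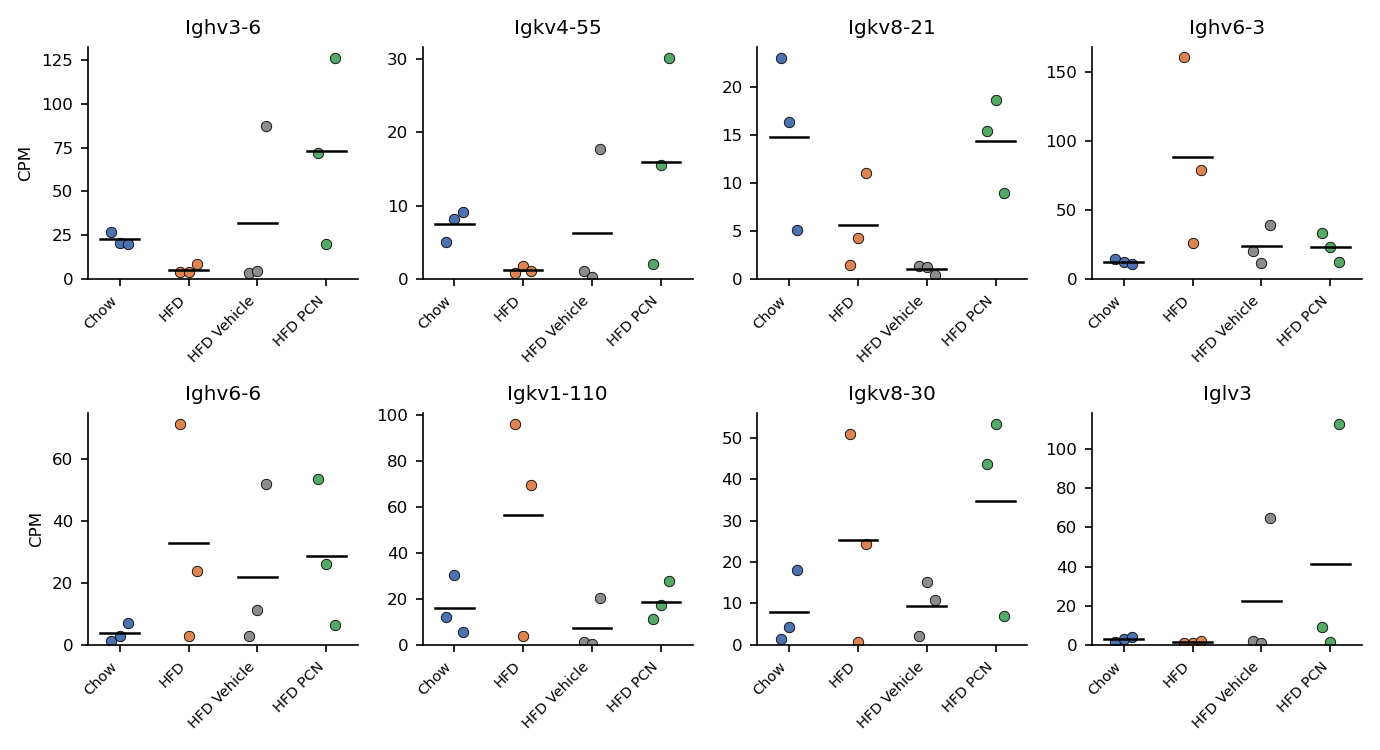
CPM of 8 V segments in each library (points) with the group mean (black bar), each panel on its own linear axis from 0. Ighv3-6 and Igkv4-55 are low in all HFD libraries, and Igkv8-21 is low in all HFD Vehicle libraries. In the other panels the highest group mean is carried by some libraries of that group only.

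Injection with vehicle was compared with no injection on the same diet, over genes listed in both tables. All HFD libraries come from the table with Chow and all HFD Vehicle libraries from the other. A difference between the tables and one of injection thus cannot be told apart. The HFD and HFD Vehicle libraries also enter the 2 comparisons above, so the 3 sets of values are not independent. Of 80 members tested, 37 had a positive and 43 a negative log2 fold change, with a median of -0.069. No gene of 16255 passed the edgeR test (0%); the smallest adjusted p among the members was 0.803, and DESeq2 called 32 genes (0.18%), of which Igkv14-111 was the only member. No member was among the 1 gene called without a count filter (0.00387%) or the 1 called in the fit that used all 12 libraries (0.00594%). Without adjustment 3 members were higher and 9 lower, against 3.65% and 2.21% of all genes, and 2 and 4 had groups that did not overlap, against 4.65% and 5.27%. Igkv14-111 had 19.7, 2.32 and 5.98 CPM in HFD and 0.722, 0.834 and 2.35 CPM in HFD Vehicle, where HFD 30 and HFD Vehicle 55 nearly met (log2 fold change -3.01, SE 0.819). Ighv1-58 lay the other way, with 1.22, 1.08 and 0.538 CPM in HFD and 3.17, 1.88 and 9.62 CPM after vehicle (2.32, SE 0.648). Igkv16-104 had 2.03, 3.78 and 2.15 CPM against 0, 0.730 and 1.07 CPM, and Ighv3-8 had 3.65, 3.89 and 4.90 CPM against 0.444, 2.24 and 1.497 CPM. Without HFD Vehicle 55 the edgeR test called 260 genes (1.54%), among them Ighv1-26, Ighv1-4, Igkv4-50 and Igkv4-59, all lower after vehicle, and the members' median was -1.65. With HFD Vehicle 55 as the lone vehicle library, assumed to vary like the HFD libraries, it called 6 genes (0.0373%), all of them members and higher: Ighv14-4, Ighv3-6, Igkv17-127, Igkv19-93, Igkv4-55 and Iglv3.

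V usage is the share of a segment in the member counts of its own locus and does not depend on the total level. It describes which members the immunoglobulin transcripts of a library used. Plasma cells and B cells before that stage cannot be told apart in it. Among heavy chain segments, Ighv5-17 led in Chow 8 (11.5%) and Ighv1-26 in Chow 17 and 19 (15.7% and 11.7%). Ighv6-3 led in all 3 HFD libraries, with 46.3%, 10.3% and 22.5% in HFD 4, 30 and 38, and in HFD Vehicle 23 and 50, with 25.7% and 12.9%. Ighv3-6 led in HFD Vehicle 55 (14.2%), HFD PCN 5 (16.9%) and HFD PCN 27 (24.3%), and Ighv5-17 in HFD PCN 11 (11.7%). The Ighv6 family as a whole held 4.6% ± 1.7 (SD, n = 3) of the heavy chain counts in Chow, 35.9% ± 28.3 in HFD, 23.2% ± 7.5 in HFD Vehicle and 13.8% ± 9.0 in HFD PCN. In Chow it was between 2.81% and 6.29%, and among the 9 libraries on the high-fat diet only HFD PCN 27 (3.53%) was in that range. The usage shares had no test.

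In the kappa locus the leading segment was more often that of a single library. Igkv1-110 held 42.3% of the kappa counts in HFD 4 and 32.6% in HFD 38, and between 0.848% and 8.00% in the other 10 libraries. Igkv8-30 was second in both, at 22.5% and 11.3%, and led in HFD Vehicle 50 (35.0%), HFD PCN 5 (12.2%), HFD PCN 11 (17.4%) and Chow 19 (8.61%). Igkv5-39 led in Chow 8, Igkv12-46 in Chow 17, Igkv8-27 in HFD 30 and HFD Vehicle 55, Igkv8-19 in HFD Vehicle 23 and Igkv19-93 in HFD PCN 27. HFD 4 and HFD 38 had 70.3% of their kappa usage in common (the sum over segments of the smaller of both shares), more than any other pair of libraries. HFD 4 and HFD 30, of the same group, had 29.2% in common. The median was 51.8% over the 12 pairs within a group and 53.0% over the 54 pairs across groups. For the heavy chain locus these medians were 55.6% and 54.2%, and pairs of Chow libraries had 63.5% to 69.7%.

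**Figure D5:**
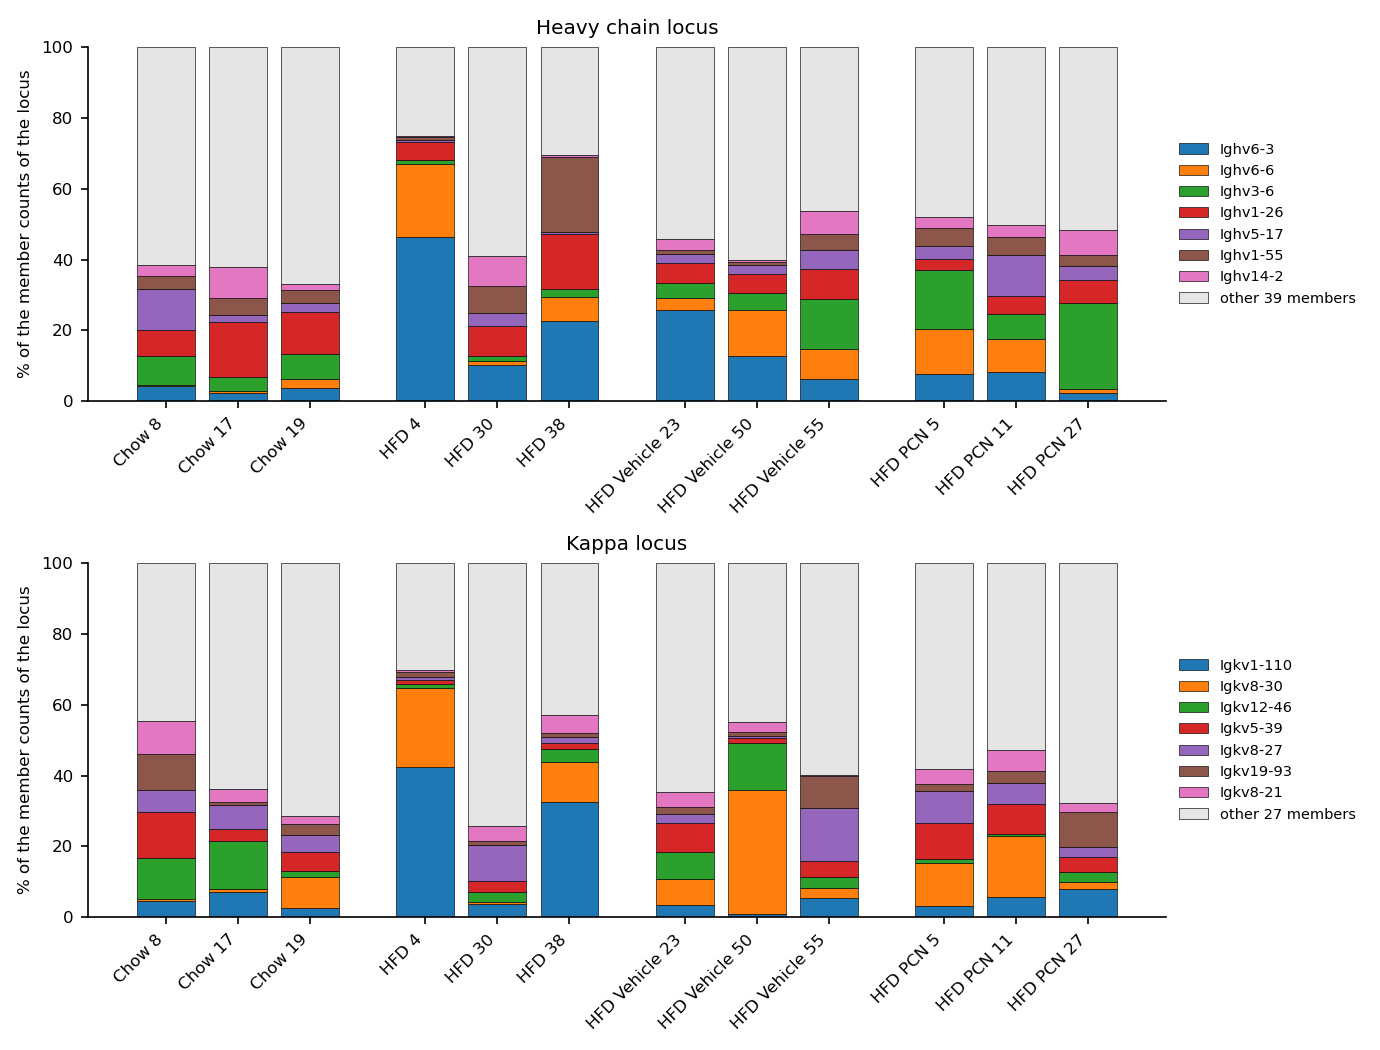
Percent of the member counts of the heavy chain locus (top) and the kappa locus (bottom) held in each library by 7 segments picked for display. They are not the 7 with the largest mean share, and all other members are in grey. Ighv6-3 and Ighv6-6 together fill most of the bar of HFD 4 (46.3% and 20.6%), and Igkv1-110 stands out in HFD 4 and HFD 38 only (42.3% and 32.6%).

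The evenness of usage was summarised as the effective number of segments, the number of equally used segments that would give the same Shannon entropy. For the heavy chain it was 27.7 ± 3.6 (SD, n = 3) in Chow, 15.8 ± 8.5 in HFD, 23.4 ± 2.5 in HFD Vehicle and 20.4 ± 1.3 in HFD PCN. The HFD mean was made of 8.52, 25.1 and 13.7 in HFD 4, 30 and 38, so that HFD 30 lay in the range of Chow (24.7 to 31.7). For kappa it was 22.6 ± 3.3 in Chow, 16.3 ± 8.5 in HFD, 17.9 ± 3.9 in HFD Vehicle and 20.1 ± 2.9 in HFD PCN, with 8.11, 25.0 and 15.9 in the HFD libraries. The same libraries, HFD 4 and 38, had the fewest effective segments in the heavy chain locus, and in the kappa locus HFD Vehicle 50 (13.5) lay between them. The 5 leading heavy chain segments held 76.6% and 71.99% of the locus in HFD 4 and 38 and 35.7% to 54.3% in the other 10 libraries.

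A segment outside the rule bears on these shares and was singled out after its values were seen. Ighv2-9, which only the table of Chow and HFD lists, had 2, 4 and 6 counts in Chow 8, 17 and 19, 836 counts in HFD 4, 28 in HFD 30 and 1588 in HFD 38 (0.242, 0.623, 0.405, 170, 1.51 and 94.9 CPM). It was thus high in the same 2 libraries as Ighv6-6 and Igkv1-110. Its log2 fold change for HFD against Chow was 7.91 (SE 2.26, edgeR adjusted p = 0.423). Over all 107 heavy chain segments of that table, Ighv2-9 was the leading segment in HFD 4 (30.5%) and HFD 38 (18.6%), ahead of Ighv6-3 (28.8% and 15.4%), and the members there held 62.3% and 68.3% of the locus against 80.7% to 87.5% in the other 4 libraries. On this wider base the effective number was still lowest in HFD 4 and 38 (10.7 and 18.2, against 33.8 to 43.9).

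By family, the sign of the diet difference was shared in some families and not in others. Of the 26 Ighv1 members, the largest heavy chain family, 23 had a negative log2 fold change for HFD against Chow (median -0.79). All 4 Ighv5 members (median -1.78), all 3 Ighv14, all 3 Igkv5 (-1.91) and all 3 Igkv6 members (-1.83) were negative, and both Ighv6 members were positive. For HFD PCN against HFD Vehicle all 5 Igkv8 members were positive, with a median of 1.98. These families are small and a read can match more than 1 member, so their counts are not taken as independent. Position along the locus was compared over 3 parts of like member number by coordinate. In the kappa locus, the part with the lowest coordinates, which holds Igkv1-110, had 28.9% ± 3.7 (SD, n = 3) of the member counts in Chow and 51.2% ± 10.3 in HFD, the middle part 40.0% ± 4.1 and 19.8% ± 11.0, and the last part 31.1% ± 2.6 and 29.0% ± 2.1. In the heavy chain locus the first part, which holds both Ighv6 members, had 38.9% ± 2.9 in Chow and 52.1% ± 19.4 in HFD, the middle part 38.1% ± 2.2 and 32.98% ± 18.6, and the last part 23.0% ± 3.9 and 14.9% ± 6.8. These shares had no test.

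The constant segments and other genes of the plasma cell program were taken from fixed lists. Of 10 constant segments tested for HFD against Chow, 9 had a negative and 1 a positive log2 fold change (median -1.23), and 6 had an unadjusted edgeR p under 0.05, all lower. After adjustment 0 passed with edgeR and 2 with DESeq2 (Iglc2 and Ighg2b). The smallest edgeR adjusted p was that of the lambda constant segment Iglc2 (11.99, 11.2 and 10.7 CPM in Chow, 3.45, 2.97 and 5.20 CPM in HFD, log2 fold change -1.39, edgeR adjusted p = 0.110). The IgG segments Ighg2b (-1.68, adjusted p = 0.364) and Ighg1 (-2.17, adjusted p = 0.397) were next. For HFD PCN against HFD Vehicle, 4 of 8 were positive (median -0.050), and 0 passed with either tool or without adjustment. Among the 14 plasma cell genes tested, 9 were negative for HFD against Chow (median -0.13) and 12 positive for HFD PCN against HFD Vehicle (median 0.21), and 0 passed in either with edgeR or DESeq2. Without adjustment, 1 was lower after the diet (Igkc) and 1 higher after PCN (Tnfrsf13b). Of the genes for IgA transport, homing, survival and class switching, 0 of 13 passed the edgeR test for the diet, 0 of 14 for PCN and 0 of 14 for vehicle. Without adjustment 3 were lower after the diet and 2 higher after PCN, and DESeq2 called Ccr9 for the diet and Aldh1a1 for PCN. The lowest adjusted p for the diet, 0.195, was that of Ccr9, the receptor that guides lymphocytes to the small bowel, which had 14.2, 16.4 and 12.5 CPM in Chow and 3.65, 6.65 and 7.29 CPM in HFD (-1.09). Itgb7, the integrin subunit of gut homing, had 10.3, 10.9 and 9.85 CPM against 4.26, 5.46 and 7.35 CPM (-0.69, adjusted p = 0.363). For PCN it was Aldh1a1, an enzyme that makes retinoic acid, with 138, 194 and 405 CPM in the vehicle and 1105, 592 and 447 CPM in the PCN libraries (1.55, adjusted p = 0.231).

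Markers of other lymphocytes were read in the same libraries. The 12 markers of B cells before the plasma cell stage summed to 56.2, 105 and 34.6 CPM in Chow, 13.6, 10.8 and 111 CPM in HFD, 7.50, 107 and 39.8 CPM in HFD Vehicle and 9.96, 20.4 and 126 CPM in HFD PCN, and 0 passed the test in any comparison, with edgeR adjusted or unadjusted or with DESeq2. For HFD against Chow all 12 had a negative log2 fold change (median -0.30), the direction of most V segments, while 3 of 12 were positive for HFD PCN against HFD Vehicle (median -0.19). From library to library their sum did not track that of the V segments: HFD Vehicle 50 was among the highest for B cell markers and near the lowest for V segments, and HFD 38 had 8.15 times the B cell marker sum of HFD 4, while their V segment sums were 615 and 580 CPM. Of 10 T and NK cell genes tested, 9 were negative for HFD against Chow (median -1.16), 10 positive for HFD PCN against HFD Vehicle (median 1.01) and 10 negative for HFD Vehicle against HFD (median -0.67), and 0 passed the edgeR test. Without adjustment 7 were lower after the diet and 3 higher after PCN, and DESeq2 called 4 for the diet (Cd3g, Gzma, Gzmb and Trdc). Their summed level was 112 to 184 CPM in Chow and 29.6 to 79.1 CPM in HFD, so it moved in the same direction as most V segments, and its part in the V segment values was not tested. All 7 enterocyte markers were positive for HFD PCN against HFD Vehicle (median 0.44) and negative for HFD Vehicle against HFD (median -0.24), and 4 of 7 were positive for HFD against Chow (median 0.12). They thus had the direction of most V segments in the PCN comparison, and their part in it was not tested. The enterocyte markers, the 6 germinal centre genes and the 5 smooth muscle genes had 0 calls with edgeR and DESeq2 in all 3 comparisons. Without adjustment, 4 of the 5 smooth muscle genes were lower after PCN than after vehicle (median -0.70), while 1 enterocyte marker and 1 germinal centre gene were higher after PCN and 1 germinal centre gene was lower after vehicle than without injection.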

How the data were processed

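RNA from duodenum was sequenced in 12 libraries of 4 groups. Per the submitters' processing notes the tools were HISAT2, HTSeq and DESeq2 and the genome GRCm38 (mm10); versions, annotation release and strand setting are not given in the sources used here. In each table the deposited values are raw counts per gene, whole numbers in 2 tables of 6 libraries (Chow with HFD, HFD Vehicle with HFD PCN). Levels are CPM: counts scaled so that a library of its table sums to 1000000, with no other factor. Each comparison was fitted on its whole table with edgeR 4.0.16 in R 4.3.3: filterByExpr, TMM (trimmed mean of M values) scaling, robust quasi-likelihood F-test and Benjamini-Hochberg adjustment over all genes tested. HFD Vehicle against HFD joined raw counts over genes of both tables. SE is taken as log2 fold change over root F. Counts of members and genes whose groups did not overlap, and the naming of such members, used CPM after TMM scaling. The fit was tested on simulated counts. Usage and shares have no test.

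Alternatives were DESeq2 1.42.0, its size factors in edgeR, scaling without immunoglobulin genes, no count filter, all 12 libraries in 1 fit, each library left out, and other denominators, members and depths for shares and usage. Leaving out HFD Vehicle 23 and 50, usage per exonic length and usage over every V segment of both tables were added after seeing the data. Members and gene lists were chosen with earlier results of these data known. Members are named if called in a comparison, among the largest by mean CPM (5 heavy, 5 kappa, 2 lambda), leading a locus in a library, or, with at least 20 counts per library on average and no overlap between groups, among the 4 largest rises or 4 largest falls. Members had 2013 to 16863 counts per library, and segments with few counts are the least precise.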

Additional observations from a re-analysis of the deposited data

How the results depend on the processing

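Scaling by size factors or without immunoglobulin genes left the number of genes and members called and the sign of every median as they were with TMM over all genes. For HFD against Chow, the genes and members called were 134 and 11 with DESeq2, 351 and 19 without a count filter, and 2 and 0 in the fit of all 12 libraries. Leaving out each library gave 4 to 63 genes, 0 to 2 members and a median from -1.17 to -0.48. For HFD PCN against HFD Vehicle they were 339 and 7, 843 and 4, and 34 and 0. Leaving out each library gave 0 to 3697 genes, 0 to 25 members and a median from 0.47 to 2.63, and without HFD Vehicle 23 and 50 they were 2 and 0 with a median of -0.44. For HFD Vehicle against HFD they were 32 and 1 (median -0.29), 1 and 0 (-0.13), and 1 and 0 (-0.18). Leaving out each library gave 0 to 260 genes, 0 to 4 members and a median from -1.65 to 0.18, positive without HFD 30 (0.18) or HFD Vehicle 50 (0.12), and without HFD Vehicle 23 and 50 they were 6 and 6 with a median of 0.89. The cause was not tested.

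The log2 fold changes of Igha, Jchain and Igkc were not called in the fits the report gives first. Leaving out each library moved them, for HFD against Chow, between -0.60 and 0.43, -0.68 and -0.089, and -1.38 and -0.55. For HFD PCN against HFD Vehicle the ranges were -0.24 to 0.84, 0.15 to 2.69 and 0.44 to 2.19, and for HFD Vehicle against HFD -0.83 to 0.26, -2.30 to 0.24 and -1.22 to 0.53. The calls gained without HFD Vehicle 55 or without a count filter are given beside these genes above. Igha turned for HFD against Chow without Chow 17 (0.43), for HFD PCN against HFD Vehicle without HFD Vehicle 23 (-0.11), HFD Vehicle 50 (-0.24), HFD PCN 5 (-0.064) or both HFD Vehicle 23 and 50 (-0.76), and for HFD Vehicle against HFD without HFD 38 (0.01), HFD Vehicle 23 (0.12), HFD Vehicle 50 (0.26) or both of these (0.79). Jchain turned for HFD PCN against HFD Vehicle without both (-0.71), and for HFD Vehicle against HFD without HFD Vehicle 23 (0.22), 50 (0.24) or both (1.11). Igkc turned for HFD PCN against HFD Vehicle without both (-0.26), and for HFD Vehicle against HFD without HFD 30 (-0.069) or HFD Vehicle 55 (-1.22).

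The mean member share in HFD Vehicle was 0.115% without HFD Vehicle 23 and 50. Leaving out each library gave 0.0566% to 0.0801% in Chow, 0.0484% to 0.0598% in HFD, 0.0130% to 0.0651% in HFD Vehicle and 0.0704% to 0.0909% in HFD PCN. Over every V segment of both tables the effective numbers were 33.9 (Chow), 18.3 (HFD), 27.1 (HFD Vehicle) and 22.6 (HFD PCN) for heavy chain and 29.2, 21.8, 23.04 and 23.00 for kappa, where more segments are counted by construction. Thinning to 1407 heavy chain and 513 kappa counts per library moved no group's mean effective number by more than its SD. No paired analysis was possible because the groups share no replicate numbers. Segments with few counts limit the small differences that could be seen.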

Other observations

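Some V segments that the rule leaves out had high values in single libraries, and they are named after their values were seen. Igkv15-103, listed only in the table of the injected groups, had 12, 25 and 11 counts in HFD Vehicle 23, 50 and 55 and 655, 29 and 229 counts in HFD PCN 5, 11 and 27 (0.667, 1.30 and 2.35 CPM against 31.7, 1.81 and 24.4 CPM). Its log2 fold change was 3.81 (SE 0.960, edgeR adjusted p = 0.231), and HFD Vehicle 55 lay above HFD PCN 11. Ighv1-5 held 13.5% of the heavy chain V counts of HFD PCN 5, second to Ighv3-6 (14.0%). Igkv1-117, listed only in the table of Chow and HFD, led the kappa locus over all 100 kappa segments of that table in Chow 19 (7.33%) and HFD 30 (13.1%), where the members held 78.4% and 66.9% of the kappa counts.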
